A study of Saccharomyces cerevisiae with 16 samples.

Results

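Ribosome footprints of a budding yeast strain that lacks the arginine permease gene CAN1 (can1Δ) were compared with those of its wild-type parent, using the 3 can1Δ and 3 wild-type libraries that the sample titles name as ribosome profiling, which are 6 of the 16 libraries of the series. Both strains are Saccharomyces cerevisiae BY4741, a haploid laboratory strain of mating type a that carries deletions in HIS3, LEU2, MET17 and URA3, and the groups differed in no treatment. Cultures of 500 ml were grown in rich YPD medium to an optical density at 600 nm of 0.5, and cells were ground frozen and taken up in a buffer with cycloheximide, which holds ribosomes in place. Lysates were digested with RNase I, and the protected fragments were recovered from the single-ribosome (80S) peak of a sucrose gradient. The title of the series places the CAN1 deletion beside replicative lifespan and stress response genes. The labels do not say whether replicates were separate cultures or how many isolates of the deletion were used, so the spread behind each p-value is that of these libraries and may be technical. The remaining footprint libraries, 2 of an rpl22a deletion and 2 of a tor1 deletion, entered the model to help estimate that spread. They also entered the scaling between libraries and the filter that decided which features were tested. In addition, 2 wild-type and 2 can1Δ mRNA libraries are shown beside the footprints as levels.

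Can1 is a plasma membrane permease that brings arginine and other basic amino acids into the cell. Yeast can also make arginine from glutamate by way of ornithine, and can break arginine down to ornithine and urea for use as nitrogen. When arginine is plentiful, the ArgR-Mcm1 complex represses most synthesis genes and activates the breakdown genes CAR1 and CAR2, while the activator Gcn4, whose own translation is raised when amino acids run short, switches on synthesis genes of many amino acids. A ribosome footprint is the stretch of mRNA that a translating ribosome shields from nuclease, so a gene's footprint level reflects both the amount of its mRNA and how densely ribosomes occupy it.

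Levels are given as RPKM, footprint reads per kilobase of listed length and per 1000000 reads, after a further scaling between libraries. Read totals recovered from the deposited values, in units of 1000000 reads, were 8.56, 5.16 and 2.52 for wild-type replicates 1, 2 and 3 and 8.7, 4.75 and 3.42 for can1Δ. Fold changes are log2 differences of scaled RPKM plus a pseudocount of 1, can1Δ minus wild type, with their standard error, and are therefore understated for weakly translated genes. A gene was called higher or lower when limma's p, adjusted by the Benjamini-Hochberg method over all 4900 features tested, was under 0.05. The a-cell and haploid marker genes matched the labelled strain, with summed levels of 793 to 895 RPKM in wild type and 908 to 1020 RPKM in can1Δ. Of these 14 markers 12 were tested and 0 were called, and the part of this small difference in other results was not tested. MFA1 and MFA2, the genes of the a-factor pheromone precursors, were at 0 reads in all 6 libraries. The 4 alpha-cell markers held 2 to 9 reads per library and the 10 meiotic markers 13 to 63. LEU2, MET17 and URA3 were listed at 0 in all 6 libraries, and HIS3, whose deletion in this strain is internal, lay at 72.0 to 91.2 RPKM.

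The deletion was visible at its own locus. CAN1 (YEL063C, R64 chrV:31694-33466, minus strand) had 42.0, 54.5 and 50.4 RPKM in wild-type replicates 1, 2 and 3, and 0.0673, 0.261 and 0.177 RPKM in can1Δ. These values come from 582, 440 and 208 reads in wild type and from 1, 2 and 1 reads in can1Δ. Per library read, can1Δ held 0.313% of the wild-type CAN1 signal, with an exact 95% interval of 0.0852% to 0.804% that covers counting error only (adjusted p = 7.17e-10). The genes that flank it on chromosome V did not pass the test. SIT1, a siderophore-iron transporter, had 24.8 to 31.1 RPKM in wild type and 17.9 to 29.2 RPKM in can1Δ. AVT2, a putative amino acid transporter, had 3.32 to 4.48 against 3.42 to 4.86 RPKM. NPR2, a subunit of the complex that restrains TORC1, had 4.86 to 5.04 against 4.32 to 6.63 RPKM, and CIN8, a mitotic kinesin, 8.97 to 10.3 against 9.49 to 10 RPKM. Of the related permeases, the lysine permease LYP1 had 85.0, 118 and 134 RPKM in wild type and 99.1, 156 and 143 RPKM in can1Δ, 2 overlapping groups with a log2 difference of 0.23 ± 0.19 (adjusted p = 0.999). The arginine permease ALP1 had at most 2 reads in any of the 6 libraries.

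The genes on which the comparison turned are shown here by the stretch of their upstream region that holds a regulatory core, because 7 synthesis genes rose and 2 breakdown genes fell and genes of both groups carry such matches. Sequences are from the RefSeq copy of the R64 genome, read 5′ to 3′ on the strand of the gene. Capitals mark the letters TGACTC, the core of the site that Gcn4 binds, found within 500 bases before the start codon. In ARG1 the capitals are the same core on the opposite strand.
ARG3, chrX:268460-268515, plus strand: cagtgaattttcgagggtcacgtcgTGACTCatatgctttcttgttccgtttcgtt
ARG1, chrXV:218912-218967, plus strand: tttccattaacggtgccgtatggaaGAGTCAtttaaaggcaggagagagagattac
ARG56, chrV:295208-295263, plus strand: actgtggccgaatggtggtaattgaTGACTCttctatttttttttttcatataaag
ARG8, chrXV:58554-58609, plus strand: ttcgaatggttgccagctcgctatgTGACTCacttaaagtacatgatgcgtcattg
ARG4, chrVIII:141551-141606, minus strand: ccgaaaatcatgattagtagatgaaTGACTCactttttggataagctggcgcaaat
ARG7, chrXIII:396501-396556, minus strand: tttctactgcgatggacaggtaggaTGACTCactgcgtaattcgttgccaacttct

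TGACTC was present on either strand in the 500 bases before the start codon of all 9 arginine synthesis genes, against 12.7% of 6006 genes with a full window. The distance from the start codon was 314 bases in the match shown for ARG3 and 152 bases in that shown for ARG7. Among the 7 breakdown genes, 4 held the same letters. The next set adds the breakdown genes and 3 genes of glutamine, asparagine and branched-chain synthesis that are described further on. Capitals mark TGACTC in CAR2, GLN1, ASN1 and BAT1, the letters GCCGCC in CAR1, which are the core of the site of the repressor Ume6, and the letters GATAAG in DUR12, the core of the sites of the GATA factors that respond to nitrogen supply.
CAR1, chrXVI:339764-339819, plus strand: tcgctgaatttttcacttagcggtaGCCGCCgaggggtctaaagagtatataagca
CAR2, chrXII:1012349-1012404, plus strand: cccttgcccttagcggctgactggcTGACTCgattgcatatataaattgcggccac
DUR12, chrII:642504-642559, minus strand: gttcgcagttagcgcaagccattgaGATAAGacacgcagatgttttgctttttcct
GLN1, chrXVI:641915-641970, plus strand: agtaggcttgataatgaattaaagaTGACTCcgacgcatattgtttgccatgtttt
ASN1, chrXVI:822368-822423, plus strand: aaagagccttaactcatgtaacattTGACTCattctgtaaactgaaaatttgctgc
BAT1, chrVIII:517336-517391, plus strand: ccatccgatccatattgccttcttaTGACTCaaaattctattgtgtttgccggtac

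On either strand GCCGCC was found in 9.57% and GATAAG in 22.8% of the 6006 windows. Of the 7 breakdown genes, 2 held GCCGCC and 5 held GATAAG. No synthesis gene of the 9 held GCCGCC, and 5 held GATAAG. The genes shown were picked with a match. BAT2 and TPO4, also described further on, held no TGACTC. In the fit of the 2 strains with a replicate block, also described further on, TGACTC preceded 10 of 13 genes called higher. Of the 15 called lower in that fit 4 held it, against 12.7% of all windows. These are letter matches only and were not tested as binding sites.

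Genes of arginine synthesis formed most of what rose in can1Δ footprints. Of 4900 features tested, 7 were higher (0.143%) and 4 lower (0.0816%), and all 7 that rose were among the 9 arginine synthesis genes. The median log2 fold change of those 9 genes was 2.25, against 0.00 over all features tested, and 8 of the 9 lay higher in every can1Δ library than in every wild-type library. Over all features tested, 222 lay higher in this way (4.53%) and 191 lower (3.9%). Libraries report relative levels, so more mRNA per cell, more ribosomes per mRNA and a change in the share of cells that express a gene cannot be told apart from the footprints alone.

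The steps that turn glutamate into ornithine did not move alike. ARG2 (YJL071W), acetylglutamate synthase at the head of the pathway, had 4.18, 3.82 and 3.99 RPKM in wild type and 3.88, 3.5 and 3.65 RPKM in can1Δ. It was the one synthesis gene whose groups overlapped, at a log2 difference of −0.10 ± 0.14 (adjusted p = 0.999), on 16 to 56 reads per library. ARG56 (YER069W, chrV:295410-298001), which encodes both acetylglutamate kinase and the reductase that follows it, had 11.4, 11.4 and 9.92 RPKM in wild type and 62.8, 81.4 and 105 RPKM in can1Δ. The groups were well apart, and the gene rose by 2.79 ± 0.17 on the log2 scale (adjusted p = 1.06e-05). ARG8 (YOL140W, chrXV:58759-60030), acetylornithine aminotransferase, had 8.13, 4.60 and 9.34 RPKM in wild type and 50.9, 52.0 and 59.0 RPKM in can1Δ. It rose by 2.76 ± 0.22 (adjusted p = 4.51e-05). ARG7 (YMR062C), the mitochondrial ornithine acetyltransferase, had 57.3, 50.5 and 42.3 RPKM in wild type and 63.9, 64 and 72.3 RPKM in can1Δ. Its groups did not overlap, but the difference of 0.42 ± 0.12 did not pass (adjusted p = 0.585). ORT1, the carrier that takes ornithine out of the mitochondrion, likewise lay higher in each can1Δ library, at 8.32 to 8.84 RPKM against 10.9 to 13.3 RPKM, without passing (0.43 ± 0.14, adjusted p = 0.802).

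The steps from ornithine to arginine held the largest differences. ARG3 (YJL088W, chrX:268799-269815), ornithine carbamoyltransferase, had 6.78, 3.39 and 2.21 RPKM in wild type and 70.5, 68.2 and 79.3 RPKM in can1Δ. The wild-type values rest on 51, 15 and 5 reads and the can1Δ values on 574, 286 and 245, and the gene rose by 3.94 ± 0.29 (adjusted p = 2.44e-05). ARG1 (YOL058W, chrXV:219211-220473), argininosuccinate synthetase, had 34.0, 28.7 and 17.8 RPKM in wild type and 240, 274 and 337 RPKM in can1Δ. It had the highest can1Δ level of the synthesis genes named here and rose by 3.39 ± 0.24 (adjusted p = 2.1e-05). ARG4 (YHR018C, chrVIII:140011-141402), argininosuccinate lyase and the last step, had 57.3, 52.1 and 49.6 RPKM in wild type and 88.8, 78.2 and 102 RPKM in can1Δ. It rose by the smaller 0.74 ± 0.11 (adjusted p = 0.0205). ARG4 did not pass without wild-type replicate 2 (adjusted p = 0.145), wild-type replicate 3 (0.0778) or can1Δ replicate 3 (0.0977). CPA1 (YOR303W, chrXV:882899-884134), the small subunit of the synthetase that supplies carbamoyl phosphate to this branch, had 33.1, 29.9 and 33.5 RPKM in wild type and 125, 171 and 179 RPKM in can1Δ. Its mRNA carries a short upstream reading frame known to hold back translation when arginine is high, and CPA1 rose by 2.25 ± 0.15 (adjusted p = 1.81e-05).

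**Figure D1:**
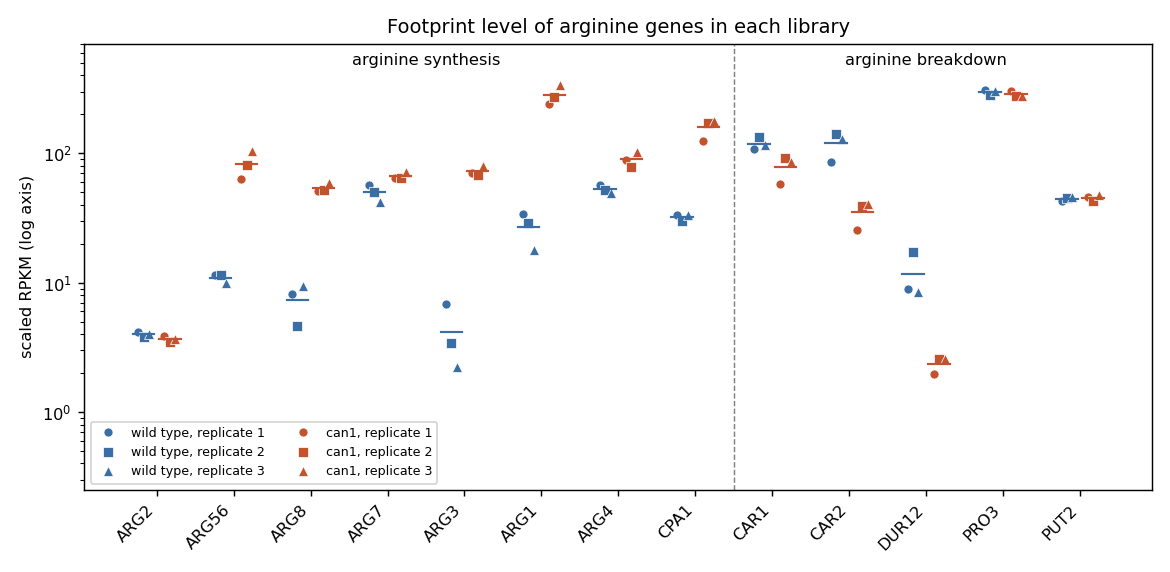
Scaled footprint RPKM on a log axis in each of the 6 libraries for 8 arginine synthesis genes (left of the dashed line) and 5 breakdown genes (right). Points are libraries, with the marker shape giving the replicate number, and short lines are group means of 3; ARG3 had 2.21 to 6.78 RPKM in wild type against 68.2 to 79.3 RPKM in can1Δ, and ARG2 overlapped.

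Taken as one list, the 9 synthesis genes held 0.0539%, 0.0485% and 0.0475% of the reads in listed features in wild type and 0.153%, 0.166% and 0.200% in can1Δ. The means were 0.05% ± 0.00346 and 0.173% ± 0.0241 (SD, n = 3 each), and the exact two-sided permutation test gave p = 0.1, the smallest that 3 libraries against 3 allow.

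Of 7 genes that break arginine down, 6 were tested and 2 of these fell, against 0.0816% of all features. The list's median was −0.34, with 4 genes below 0 and 2 above. CAR2 (YLR438W, chrXII:1012501-1013775), ornithine transaminase, had 86.3, 142 and 130 RPKM in wild type and 25.5, 39.3 and 40.9 RPKM in can1Δ. It fell by 1.73 ± 0.21 (adjusted p = 0.00252), and the highest can1Δ library was below the lowest wild-type library. DUR12 (YBR208C, chrII:636703-642210), urea amidolyase, which degrades the urea that arginase releases, had 8.95, 17.3 and 8.54 RPKM in wild type and 1.98, 2.55 and 2.58 RPKM in can1Δ. It fell by 1.84 ± 0.27 (adjusted p = 0.0133), and did not pass without can1Δ replicate 2 (0.0592) or can1Δ replicate 3 (0.0656). CAR1 (YPL111W, chrXVI:339944-340945), arginase, had 107, 134 and 115 RPKM in wild type and 58.1, 91.6 and 85.2 RPKM in can1Δ. Its groups did not overlap, and its difference of −0.62 ± 0.17 did not pass (adjusted p = 0.539) but did with the replicate number as a block and the 2 strains alone (0.0469), though not with the block and 10 libraries (0.11).

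The later steps by way of proline showed no called change. PRO3, which makes proline in the cytosol, had 284 to 308 RPKM in wild type and 276 to 303 RPKM in can1Δ. PUT2, the mitochondrial enzyme that completes proline breakdown, had 42.5 to 46.1 against 43.1 to 47.4 RPKM. DUR3, a urea and polyamine permease, stayed under 2 RPKM in each library, and PUT1, proline oxidase, had 2 to 14 reads and was not tested. Of 14 regulators of these genes 13 were tested and 0 were called by limma, with or without the block; their log2 differences ran from −0.10 to 0.28. The fit without the block had an unadjusted p under 0.05 for 235 of the 4900 features. The 8 genes of proline and polyamine synthesis also had 0 calls and a median of −0.02.

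MTE1 (YGR042W), a DNA repair protein, was the one gene called lower that belongs to none of the arginine lists apart from CAN1 itself. It had 6.34, 7.52 and 6.79 RPKM in wild type and 3.30, 2.75 and 3.31 RPKM in can1Δ, on 8 to 38 reads. The fall of 0.94 ± 0.15 (adjusted p = 0.0289) did not pass in any fit that lacked 1 of these 6 libraries (0.0606 to 0.23) or with the replicate block (0.0522 with 10 libraries, 0.0725 with the 2 strains alone).

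**Figure D2:**
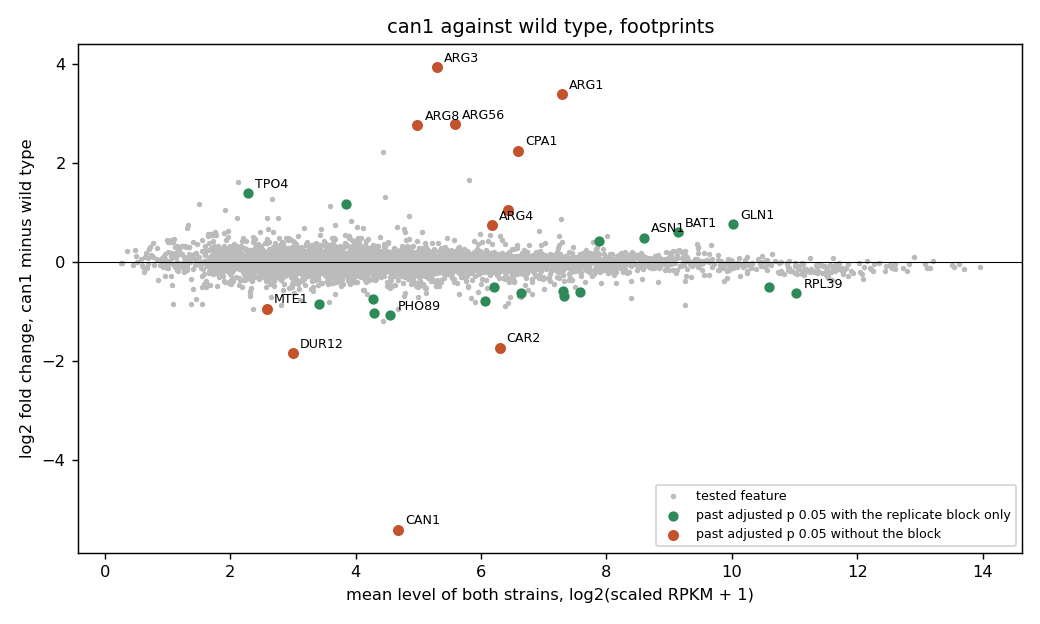
Log2 fold change, can1Δ minus wild type, against mean level of both strains as log2(scaled RPKM + 1), with one point per tested feature (4900). Red points passed in the fit of 10 libraries without a block. Green points passed, of these 2 fits, only in that with the block and the 2 strains alone, and some points carry names. CAN1 lies at −5.41, the named red synthesis genes lie between 0.74 and 3.94, and most features lie near 0.

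The mRNA libraries gave these values for several of the called arginine genes. ARG3 had 5.86 and 2.63 RPKM in the wild-type mRNA libraries and 47.7 and 56.5 RPKM in can1Δ, a log2 difference of 3.41. ARG1 had 54.0 and 17.7 against 227 and 229 RPKM. For ARG56 the mRNA values were 14.3 and 9.87 against 38.5 and 53.1 RPKM, a log2 difference of 1.84 where footprints gave 2.79. ARG8 had 48.8 and 31.6 against 97.9 and 75.4 RPKM, a difference of 1.11 beside 2.76 in footprints. CPA1 had 39.5 and 29.8 against 55.9 and 73.3 RPKM, a difference of 0.88 beside 2.25. CAR2 mRNA was 11.0 and 8.59 RPKM in wild type and 1.2 and 2.36 RPKM in can1Δ. Its log2 difference was −1.98 in mRNA beside −1.73 in footprints, so the mRNA difference was the larger. For ARG4 the mRNA difference was 0.49 beside 0.74 in footprints, and for DUR12 −1.11 beside −1.84. CAR1, not called without a block, also had the larger difference in mRNA, −1.09 beside −0.62. Not every gene named had the same sign in both; for example, the mRNA difference was 0.02 for MTE1, −0.21 for ORT1 and −0.38 for GCN4, against −0.94, 0.43 and 0.53 in footprints. These are descriptions of 2 libraries per strain, and whether footprint and mRNA differences differ from each other was not tested.

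Same-number libraries of the 2 strains deviated together from their group means, so the fit was repeated with the replicate number as a block. With the 2 strains alone, 13 features were then higher (0.265%) and 15 lower (0.306%). With all 10 libraries, 11 were higher (0.224%) and 6 lower (0.122%). There the block covered the wild-type and can1Δ libraries only, so differences between replicates of the rpl22a and tor1 deletions stayed in the spread. Of the 30 features called in either fit, 15 were called in both. Of the 28 called with the 2 strains alone, 10 were among the 11 called without a block.

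The genes added on the higher side included enzymes that assimilate nitrogen. GLN1 (YPR035W, chrXVI:642208-643320), glutamine synthetase, had 692, 701 and 903 RPKM in wild type and 1070, 1320 and 1500 RPKM in can1Δ. The groups did not overlap, and the log2 difference was 0.76 (adjusted p = 0.00367 with the block and the 2 strains alone, 0.00269 with 10 libraries, 0.0794 without a block). GLN1 also passed without a block with the deposited scaling and with the length trend removed. The same held when wild-type replicate 3 or can1Δ replicate 1 was left out. ASN1 (YPR145W), an asparagine synthetase, had 295, 333 and 338 RPKM against 391, 469 and 500 RPKM. Its difference of 0.49 passed with the block and the 2 strains alone (0.0169) but not with 10 libraries (0.0932). BAT1 and BAT2 are the mitochondrial and cytosolic branched-chain aminotransferases. BAT1 (YHR208W) had 409, 380 and 562 RPKM in wild type and 615, 671 and 736 RPKM in can1Δ, a difference of 0.60 that passed under both blocks (0.0349 and 0.0322). BAT1 also passed without a block when wild-type replicate 3 was left out. BAT2 (YJR148W) had 100, 80.2 and 149 RPKM against 236, 153 and 205 RPKM, a difference of 0.87 that passed with 10 libraries (0.0425) and not with the 2 strains alone (0.077).

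TPO4 (YOR273C), a polyamine exporter, was the added gene with the largest difference on the higher side. It had 1.15, 1.32 and 2.59 RPKM in wild type and 4.37, 5.58 and 8.20 RPKM in can1Δ, and its difference of 1.39 passed under both blocks (0.0104 and 0.0382). AIM17 (YHL021C), a mitochondrial protein, had 6.04, 5.27 and 12.2 RPKM against 11.3, 18.4 and 27.0 RPKM. Wild-type replicate 3 and can1Δ replicate 1 overlapped, while every same-number pair was higher in can1Δ (0.80, 1.63 and 1.09; adjusted p = 0.0349 with the 2 strains alone, 0.116 with 10 libraries). WTM1, a transcriptional modulator beyond the 12 genes a side taken for naming, passed with the 2 strains alone (0.0284) and not with 10 libraries (0.11), with 179 to 239 RPKM against 244 to 320 RPKM.

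On the lower side the block and the 2 strains alone added 12 features, 9 of the 15 then called lower having a listed length under 500 bases. PHO89 (YBR296C, chrII:796798-798522), a sodium-phosphate cotransporter, had 17.3, 36.6 and 39.4 RPKM in wild type and 8.32, 17.1 and 16.4 RPKM in can1Δ. Can1Δ replicate 2 lay just under wild-type replicate 1, and the pairs differed by −0.97, −1.06 and −1.21 (adjusted p = 0.00447 with the 2 strains alone, 0.317 with 10 libraries). REE1 (YJL217W), a regulator of enolase, had 165, 208 and 219 RPKM against 95, 133 and 138 RPKM (adjusted p = 0.00447 with the 2 strains alone, 0.322 with 10 libraries). GPX2 (YBR244W), a glutathione peroxidase, had 258, 244 and 189 RPKM against 172, 148 and 134 RPKM (adjusted p = 0.0113 and 0.721 in the same 2 fits). HCH1 (YNL281W), a co-chaperone of Hsp90, had 215, 185 and 171 RPKM against 147, 114 and 117 RPKM (adjusted p = 0.0104 and 0.165). In these 3 genes each can1Δ library lay below all wild-type libraries.

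ATX1 (YNL259C), a copper chaperone needed for iron uptake, had 114, 73.0 and 66.4 RPKM in wild type and 61.9, 43.0 and 38.9 RPKM in can1Δ, without overlap (adjusted p = 0.00447 with the block and the 2 strains alone, 0.0932 with 10 libraries). TIS11 (YLR136C), which destabilises mRNAs when iron is scarce, had 17.8, 10.9 and 9.09 RPKM against 10.3, 5.19 and 4.70 RPKM (adjusted p = 0.0457 and 0.345 in the same 2 fits), with overlapping groups and pairs of −0.74, −0.95 and −0.82. DAD3 (YBR233W-A), a subunit of the DASH complex of the kinetochore, had 36.9, 19.0 and 17.5 RPKM against 23.1, 8.27 and 6.41 RPKM (adjusted p = 0.0305 and 0.0461), on 4 to 57 reads and with overlap. TCA17 (YEL048C), a TRAPP complex subunit, had 27.0, 23.1 and 19.2 RPKM against 18.2, 12.8 and 9.92 RPKM (adjusted p = 0.0462 and 0.025). TCA17 also passed without a block when can1Δ replicate 1 was left out.

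**Figure D3:**
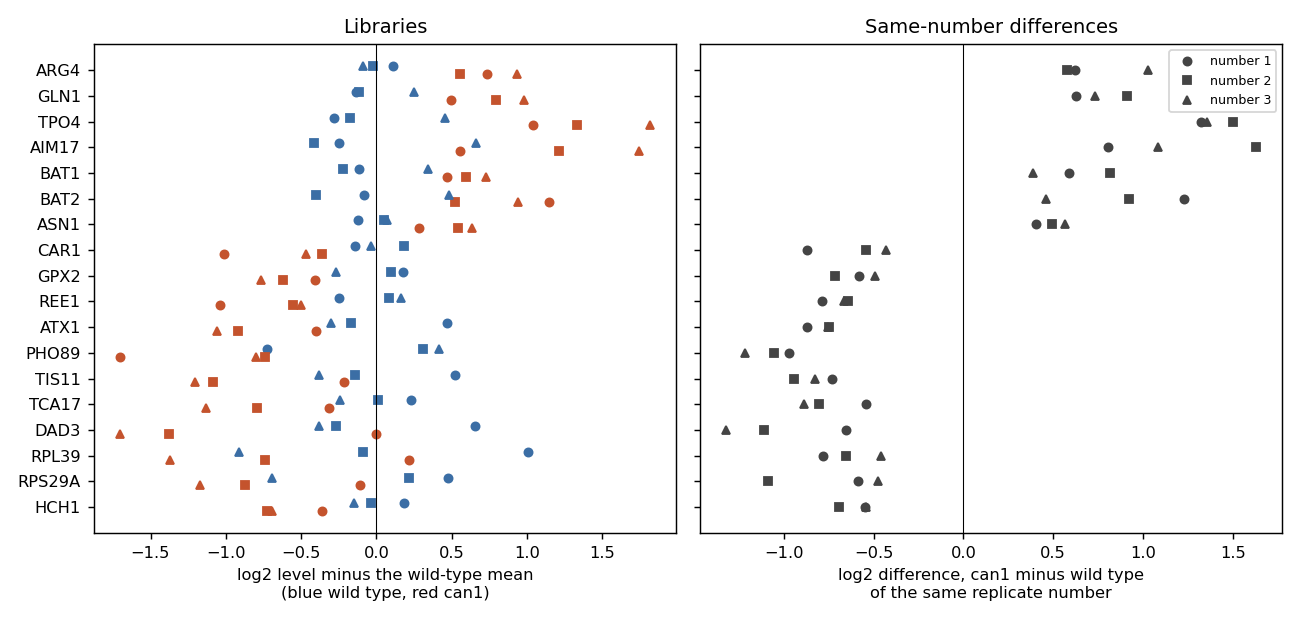
ARG4 and 17 genes that passed with a replicate block and not in the fit of 10 libraries without one, with marker shape giving the replicate number. The left panel plots each library's log2 level minus the wild-type mean (blue wild type, red can1Δ) and the right panel the log2 difference within each same-number pair; PHO89 had pairs of −0.97, −1.06 and −1.21 and TPO4 of 1.32, 1.5 and 1.36, while BAT2 and RPS29A passed with the block and 10 libraries and not with the 2 strains alone.

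The difference varied with the length of the gene. Listed length equals coding length less 100 bases for 5408 of 5456 single-gene features. In features under 300 bases of listed length the median log2 difference was −0.16 (285 features), and it was −0.08 from there to 500 bases, −0.03 to 1000, 0.01 to 2000 and 0.04 at 2000 bases or more. The class under 300 bases was lower in each same-number pair, at −0.18, −0.21 and −0.12. Across 4804 genes Spearman's rho between listed length and log2 difference was 0.26, and it was 0.21, 0.23 and 0.08 within the pairs; genes share their libraries, so this is a description. Of the 15 features called lower with the block and the 2 strains alone, 9 had a listed length under 500 bases, where 14.1% of tested features lie.

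**Figure D4:**
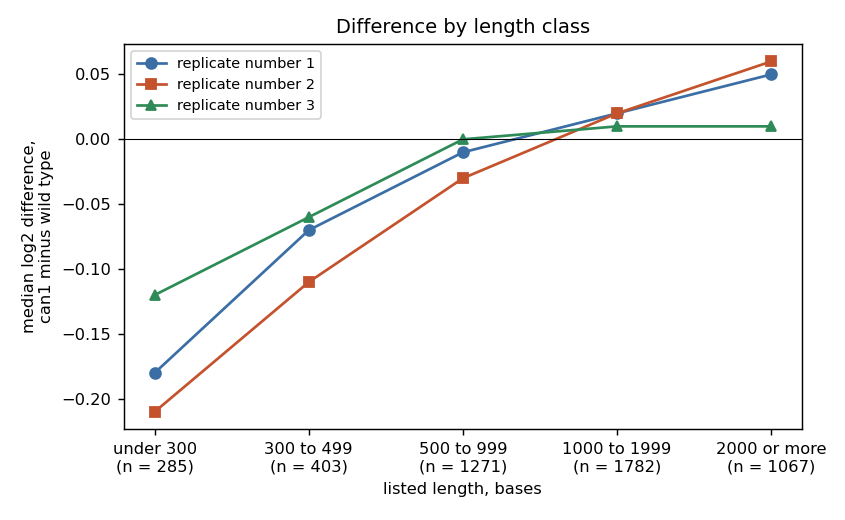
Median log2 difference, can1Δ minus wild type, within each same-number pair of libraries (one line per replicate number) in 5 classes of listed length in bases, with the number of features under each class. In the class under 300 bases the medians were −0.18, −0.21 and −0.12, and in the class of 2000 bases or more they were 0.05, 0.06 and 0.01.

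With the trend on length removed in each library and the block kept, 18 of the 28 features called with the 2 strains alone were still called. PHO89 (adjusted p = 0.00809), REE1 (0.0119), GPX2 (0.028), HCH1 (0.028), ATX1 (0.028), GLN1 (0.00699), ASN1 (0.0322), TPO4 (0.0206) and WTM1 (0.041) were among them. ARG4 (0.0585), CAR1 (0.0748), BAT1 (0.0575), AIM17 (0.0627), TIS11 (0.0656), DAD3 (0.103) and TCA17 (0.106) were not, nor were RPL39 (0.0729), RPL29 (0.289) and KSH1 (0.289).

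Ribosomal protein genes are mostly short, and most lay below 0. Of 56 features of the large subunit 53 were below 0, with a median of −0.16, and of 41 of the small subunit 39 were below 0, with a median of −0.15. With the length trend removed the medians were −0.10 and −0.11. Within same-number pairs 1, 2 and 3 the medians were −0.21, −0.22 and −0.05 for the large subunit. For the small subunit they were −0.20, −0.22 and −0.06, so in both the third pair differed least. RPL39 (YJL189W), with a listed length of 56 bases, had 4460, 2090 and 1180 RPKM in wild type and 2590, 1330 and 858 RPKM in can1Δ, 2 overlapping groups. The pairs differed by −0.79, −0.65 and −0.46 (adjusted p = 0.00946 with the block and the 2 strains alone, 0.484 with 10 libraries). RPL29 passed with the 2 strains alone (0.0284, and 0.737 with 10 libraries) and RPS29A with the block and 10 libraries (0.0382, and 0.077 with the 2 strains alone); of the 97 features no other passed in any of these 3 fits. The share of reads in large subunit genes was 12% ± 1.44 in wild type and 11.3% ± 1.13 in can1Δ (SD, n = 3 each; exact permutation p = 0.5). Of 55 ribosome assembly factors 0 were called, with a median of 0.01, and of 27 initiation factors 0 were called, with a median of 0.05.

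GCN4 (YEL009C), the activator of amino acid synthesis genes, was not called. It had 53.1, 91.6 and 50.5 RPKM in wild type and 88.0, 107 and 79.1 RPKM in can1Δ, with overlapping groups and pairs of 0.72, 0.22 and 0.64. The log2 difference was 0.53 ± 0.23 (adjusted p = 0.999, and 0.112 with the block and the 2 strains alone). Its mRNA had 824 and 640 RPKM in wild type and 600 and 521 RPKM in can1Δ.

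Other amino acid pathways gave few calls. Branched-chain synthesis had the second highest median of the lists, 0.20 over 11 genes, 10 of them above 0; 2 passed with the block and 10 libraries. LEU1, isopropylmalate isomerase, had 478, 357 and 574 RPKM against 858, 573 and 679 RPKM (0.59 ± 0.18, adjusted p = 0.672), with overlap between the groups. LEU4, an isopropylmalate synthase, had 99.4 to 122 RPKM against 130 to 168 RPKM (0.39 ± 0.12, adjusted p = 0.672). All 10 genes of the glutamate, glutamine and asparagine list were above 0, with a median of 0.10, and GLN1 and ASN1 were the 2 that passed with the block and the 2 strains alone, GLN1 also with 10 libraries. The medians were 0.06 for lysine, 0.05 for histidine, 0.06 for aromatic and 0.01 for sulfur amino acid synthesis, with 0 called in each by limma with or without the block. LYS2, aminoadipate reductase, had the largest difference of the lysine list, 66.7 to 78.5 RPKM against 84.4 to 97.1 RPKM (0.36 ± 0.10, adjusted p = 0.559). Of 26 amino acid permease genes and their sensors 21 were tested and 0 called. GAP1, the general amino acid permease, had 5.92 to 6.67 against 3.43 to 5.55 RPKM, and PTR2, a dipeptide transporter, 56.7, 114 and 121 against 132, 144 and 151 RPKM (0.62 ± 0.32, adjusted p = 0.999). None of the 23 genes of TORC1 and its regulators was called, and their differences ran from −0.20 to 0.20.

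**Figure D5:**
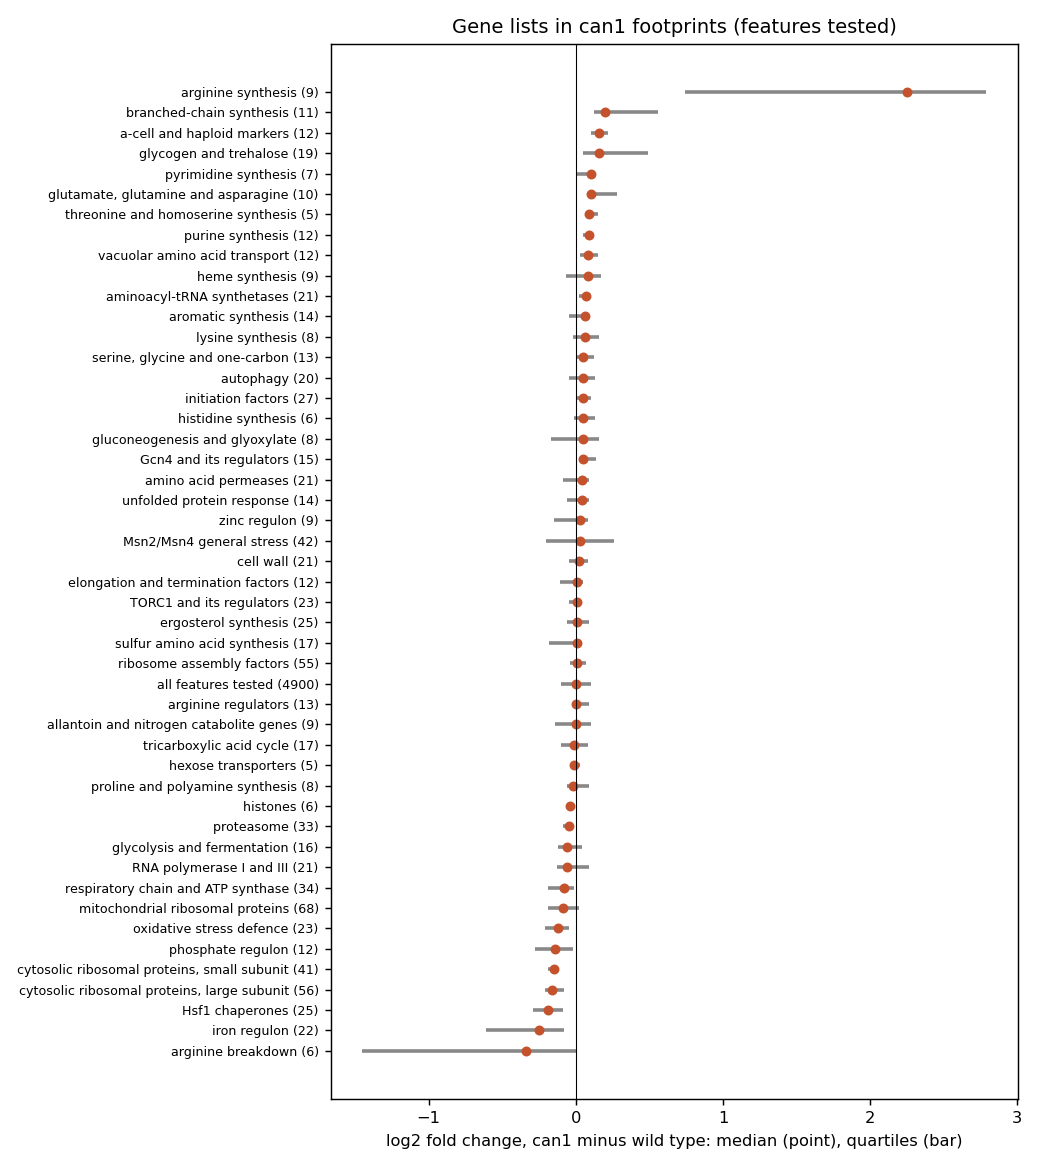
Median log2 difference (point) and quartiles (bar), can1Δ minus wild type, for all features tested and for each gene list except the alpha-cell and meiotic markers. The number of tested features is in brackets. Arginine synthesis lies at 2.25, the next list at 0.20, and arginine breakdown lowest at −0.34.

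Stress response genes, which the series title names, gave no call as a list. The list of Msn2 and Msn4 targets held 54 genes, of which 42 were tested and 0 were called by limma in any of the 3 fits. Of all features, the fit without a block called 0.143% higher and 0.0816% lower, so 0 of 42 is near that share. The median of the 42 genes was 0.03, with 22 above 0 and 20 below. Their extremes went in opposite directions. HSP12, a small membrane-associated heat shock protein, had 32.8, 36.9 and 15.9 RPKM in wild type and 7.35, 23.8 and 7.74 RPKM in can1Δ, with overlap (−1.19 ± 0.42, adjusted p = 0.905). PGM2, phosphoglucomutase, had 1.58, 1.29 and 3.02 RPKM against 1.68, 5.30 and 19.3 RPKM (1.28 ± 0.59, adjusted p = 0.999), with can1Δ replicate 3 far above the rest. HSP12 and PGM2 were named after their values were seen. SSA4, which is also on the chaperone list that follows, had the smallest adjusted p without a block among the list's named genes (0.0794). It was called lower with a pseudocount of 5 and with limma's ordinary moderation.

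Among chaperone genes controlled by the heat shock factor Hsf1 most values lay below 0. Of 25 genes 22 were below 0, the median was −0.19, and 10 lay below wild type in every library, where 3.9% of all features did. HCH1 was the one that passed, with the block and the 2 strains alone, and 0 passed in the other 2 fits. SSA4, a stress-induced Hsp70, had 6.61, 5.32 and 5.32 RPKM in wild type and 2.65, 2.75 and 2.11 RPKM in can1Δ, a difference of −0.95 ± 0.17 (adjusted p = 0.0794). STI1, a co-chaperone that links Hsp70 to Hsp90, had 340, 351 and 284 RPKM against 248, 240 and 234 RPKM (−0.42 ± 0.11, adjusted p = 0.445). YDJ1, a J-protein, had 624 to 725 against 523 to 594 RPKM (−0.29 ± 0.09, adjusted p = 0.802). Together the chaperones held 2.84% ± 0.0516 of reads in wild type and 2.53% ± 0.0719 in can1Δ (SD, n = 3 each), with no overlap (exact permutation p = 0.1, the smallest possible). The median with the length trend removed was −0.22. Within same-number pairs 1, 2 and 3 the list's median was −0.28, −0.27 and −0.10.

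Among the remaining stress and metal lists, 1 of 23 tested oxidative stress genes, GPX2, passed with the block and the 2 strains alone, 0 passed in the other 2 fits, and the list's median was −0.12. AHP1, an abundant peroxiredoxin, had 4920, 4820 and 4770 RPKM in wild type and 2990, 4450 and 4130 RPKM in can1Δ (−0.35 ± 0.21, adjusted p = 0.999). TRX2, thioredoxin, had 961 to 1160 against 782 to 950 RPKM (−0.32 ± 0.14, adjusted p = 0.999). Of 14 tested genes of the unfolded protein response 0 were called; HAC1, its activator, had 12.6, 5.95 and 17.2 against 18.2, 17.5 and 20.2 RPKM (0.71 ± 0.29, adjusted p = 0.998). The iron regulon had a median of −0.25 over 22 tested genes, 18 of them below 0. Within the same-number pairs the list's median was −0.36, −0.34 and 0.01, so the third pair did not show it. ATX1 and TIS11 were the 2 that passed with the block and the 2 strains alone, and 0 passed with the block and 10 libraries. FTR1, the high-affinity iron permease, had 126 to 144 against 100 to 117 RPKM (−0.26 ± 0.10, adjusted p = 0.978). In the phosphate regulon PHO89 was the one of 12 tested genes that passed, with the block and the 2 strains alone, and 0 passed in the other 2 fits. PHM6, another phosphate-responsive gene, had 36.8, 24.1 and 35.8 against 24.1, 15.3 and 11.0 RPKM (−0.94 ± 0.27, adjusted p = 0.559).

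Carbon metabolism held single large differences that did not pass. ALD6 (YPL061W), cytosolic aldehyde dehydrogenase, had 825, 794 and 733 RPKM in wild type and 315, 477 and 518 RPKM in can1Δ, with no overlap and the lowest value in can1Δ replicate 1 (−0.87 ± 0.22, adjusted p = 0.473). ALD4, its mitochondrial relative, had 23.9 to 27.0 against 13.5 to 20.5 RPKM (−0.49 ± 0.16, adjusted p = 0.802). IDH1 and IDH2 encode the subunits of isocitrate dehydrogenase. IDH1 had 150, 174 and 135 against 97.4, 101 and 112 RPKM (−0.55 ± 0.12, adjusted p = 0.274) and IDH2 had 223, 244 and 169 against 138, 140 and 167 RPKM (−0.50 ± 0.14, adjusted p = 0.536). The glycogen and trehalose list had a median of 0.16 over 19 tested genes, 16 of them above 0, and 0 calls. GSY1 and GSY2, the glycogen synthases, had 0.715 to 2.00 against 2.56 to 6.44 RPKM and 2.81 to 3.60 against 4.12 to 9.85 RPKM, each without overlap (adjusted p = 0.559 and 0.489). GLC3, the branching enzyme, had 0.603 to 1.07 against 1.06 to 3.39 RPKM. Of 34 tested respiratory chain and ATP synthase genes 27 were below 0 and 0 were called; with the length trend removed their median changed from −0.08 to −0.01.

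Across 4804 genes Spearman's rho between the percentage of arginine codons and the log2 difference was −0.08, and it was −0.06 with the length trend removed.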

How the data were processed

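Each deposited file holds an RPKM value per open reading frame with a listed length, as the authors made it; the submitters' processing notes name Bowtie 1.1.2 and the genome build R64, and how reads were counted is not given in the sources used. Low RPKM values times length fell on whole multiples of 1 read (within 0.05 reads), which gave each library's depth; wild-type footprint replicate 1 matched the mean of 2 runs, so its read numbers are approximate. Libraries were rescaled by a trimmed mean of log ratios, and 4900 of 5574 features with at least 2.02 reads per 1000000, equal to 10 reads at median depth, in at least 2 libraries were tested with limma 3.58.1 (trended, robust) in R 4.3.3 on log2(scaled RPKM + 1), in 1 fit of 10 footprint libraries without a block. Of the features, 116 merge 335 near-identical genes.

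Replicate numbers come from the sample titles. Deviations from group means correlated within same-number pairs at 0.67, 0.24 and 0.45 over 4028 genes, and in 6 other pairings between −0.53 and 0.23, so blocked values are given where they change a call.

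The comparison and the 49 gene lists were chosen with earlier results of these data known. Genes were named by rule: the CAN1 region and strain markers, all called features, up to 12 a direction from the blocked fit of the 2 strains, all arginine genes, up to 4 per other list by p, and up to 5 a direction by fold without overlap. RGI1, STF2, IGD1, PGM2, HSP12, WTM1, RPL29 and KSH1 were added after their values were seen. Alternatives changed the block, libraries, scaling, pseudocount, filter, moderation and length trend. Values of 1 gene and 1 upstream sequence are not reported here.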

Additional observations from a re-analysis of the deposited data

How the results depend on the processing

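Against 7 features higher and 4 lower without a block, the replicate block gave 11 higher with 10 libraries, and 13 higher and 15 lower with the 2 strains alone; with the length trend removed as well it gave 11 higher and 8 lower. The 2 strains alone without a block gave 6 higher and 3 lower, and ARG4 and MTE1 were then not called. Leaving out 1 library at a time gave 6 to 11 higher and 2 to 4 lower. Without can1Δ replicate 1, 11 were higher, and without can1Δ replicate 2 or 3, 2 were lower. By construction the block fit removes differences shared by same-number libraries; for the rest the cause was not tested. The meiotic list had no gene left under the stricter filter. Other scalings, pseudocounts, filters and moderation left both counts within 1.5 times. The block changed no call beyond those named with it. Over the named genes and these settings, 1279 values kept direction and side of the threshold, 43 newly passed, 17 no longer passed and 16 changed sign, the last all in uncalled genes near 0. With 1 library left out at a time these ran from −0.04 to 0.05 for CIN8, −0.18 to 0.32 for DUR3, −0.13 to 0.04 for HIS3 and −0.01 to 0.06 for PUT2. With the length trend removed, CIN8 was at −0.04 and PUT2 at 0.00, each with or without the block, and HIS3 at 0.02 without the block and 0.01 with it; HIS3 was also at 0.02 with the deposited scaling. Of the list medians under the alternatives, 770 stayed within the spread between pairs and 93 moved by more. Depth limits the short and weak genes: MTE1, DAD3 and TIS11 rest on as few as 8, 4 and 12 reads in a library.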

Other observations

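The largest differences on the higher side outside the arginine genes did not pass the test, and these genes were chosen after their values were seen. RGI1, a small protein involved in energy metabolism under respiratory growth, had 2.81, 1.61 and 15.8 RPKM in wild type and 7, 31.1 and 66.1 RPKM in can1Δ. Its groups overlapped, all 3 same-number pairs were higher in can1Δ (1.07, 3.62 and 2.00), and the difference was 2.23 ± 0.86 (adjusted p = 0.987, and 0.132 with the block and the 2 strains alone). STF2, a protein linked to ATP synthase control and desiccation tolerance, had 19.6, 10.7 and 54.9 RPKM against 37.1, 87.4 and 122 RPKM (1.65 ± 0.60, adjusted p = 0.97). IGD1, an inhibitor of glycogen debranching, had 0, 0.424 and 1.66 RPKM against 0.231, 5.82 and 12.2 RPKM (1.62 ± 0.79, adjusted p = 0.999). The IGD1 values rest on 0, 1 and 2 reads in wild type and on 1, 13 and 20 in can1Δ. IGD1 passed (adjusted p = 0.0481) when can1Δ replicate 1, its lowest can1Δ library, was left out. In mRNA, RGI1 had 7.56 and 23.3 RPKM in wild type and 56.4 and 97.2 RPKM in can1Δ.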
